A study of Mus musculus with 14 samples.

Results

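Neutrophils sorted from mouse bone marrow were set against granulocyte-monocyte progenitors (GMP), the bone marrow progenitors from which neutrophils and monocytes can form. The comparison used 4 of the 14 arrays of the series, 2 of neutrophils and 2 of wild-type GMP, chosen by their labels and not by a measured value. Both populations were primary cells from wild-type C57BL/6 bone marrow, and the labels name no treatment other than the sort. Neutrophils were sorted by FACS as CD11b+ cells with high Ly6G. GMP were enriched by MACS and then sorted by FACS as lineage-negative cells that carried CD117 and CD16/32 and lacked IL-7R, Sca-1 and CD115. The rest of the series holds IRF8KO GMP and wild-type dendritic progenitors and dendritic cells (CDP, pre-cDC, CD4+ cDC and CD8+ cDC). The CD4+ and CD8+ cDC came from spleen. The labels number the arrays of a group but do not say whether these came from separate mice, so p-values here measure the spread between replicate arrays alone, and that spread may be technical. The 2 neutrophil arrays shared a slide with CD8+ cDC and the 2 GMP arrays shared another with IRF8KO GMP, so slide and cell type cannot be told apart, and neither can the extra MACS step.

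A GMP matures into a neutrophil by way of promyelocytes, which fill the primary (azurophil) granules with myeloperoxidase and serine proteases, and myelocytes, which fill the secondary (specific) granules with lactoferrin and cathelicidin. Later stages add tertiary (gelatinase) granules, stop dividing and fold the nucleus into lobes. Granule proteins are made in this order, so a mature cell can carry a protein whose mRNA it no longer makes. Transcription factors of the C/EBP family, with PU.1 and Gfi1, direct this course, while Irf8 favours the monocyte and dendritic cell fates.

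RNA was hybridised to single-colour oligonucleotide arrays. A level below is the log2 signal of the gene's brightest probe minus that array's 75th percentile, so a level of 0 is the 75th percentile of the array, and a difference is the neutrophil level minus the GMP level. The 75th percentile itself was 163 and 148 signal units on the neutrophil arrays, against 553 and 584 on the GMP arrays, so the scaling removed a difference in overall brightness. Between 41.6% and 44.6% of probes were well above background on the neutrophil arrays, against 43.6% to 44.8% on the GMP arrays. Replicates lay close together: the median difference between the 2 neutrophil arrays was 0.089 on the log2 scale, against 0.063 between the 2 GMP arrays. Precision is limited by having 2 arrays a group. In bulk RNA, fewer cells of a type and less RNA per cell cannot be told apart.

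The 2 populations differed over most of the transcriptome. A gene was tested where both arrays of neutrophils or both of GMP detected it well above background. Of these 12530 genes, 11558 passed limma's moderated test at an adjusted p under 0.05, which is 92.2%. Of the genes tested, 5916 (47.2%) were higher in neutrophils and 5642 (45%) were lower. A call at least 2-fold in size was made for 4421 genes higher (35.3%) and 4431 lower (35.4%). With arrays scaled to their medians, 38.17% of the 2-fold calls were higher, against 49.94% with the 75th percentile. The median difference of all genes tested was 0.08, and the middle of the distribution ran from -1.98 at the lower quartile to 1.62 at the upper quartile. Since nearly every gene passed, the gene groups below are described by direction, by their counts of 2-fold calls and by their median difference, each read against these figures. At the far end, 690 genes were at least 16-fold higher and 1163 at least 16-fold lower.

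**Figure D1:**
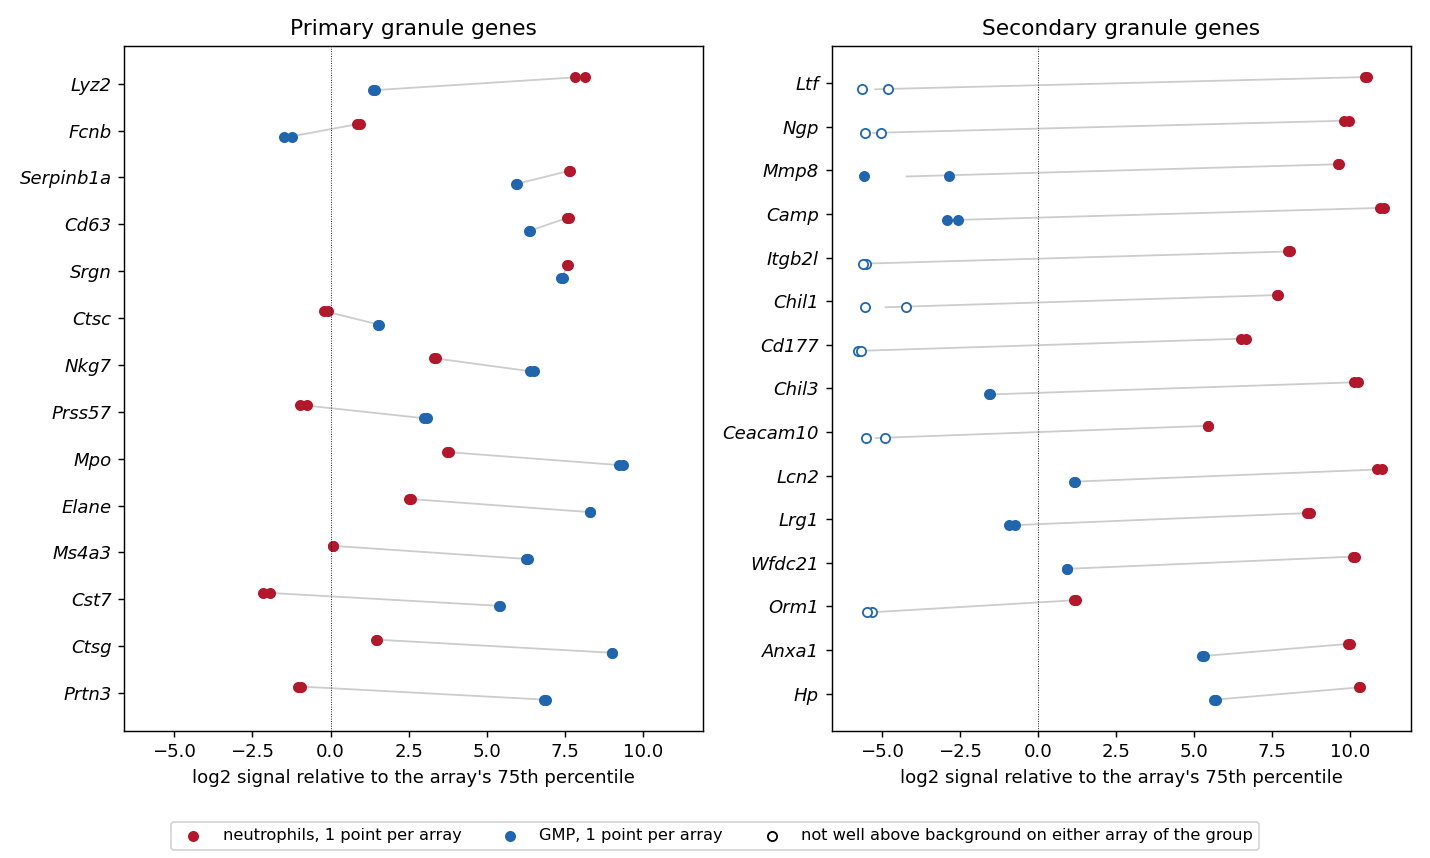
Levels of the tested primary granule genes (left) and secondary granule genes (right) on each array, as log2 signal relative to the array's 75th percentile (x axis), with neutrophils above GMP in each row; grey lines join group means. All 15 secondary granule genes lie further right in neutrophils, by 4.61 to 15.70, while 9 of the 14 primary granule genes lie further left.

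The secondary granule genes made the largest shift of any list. Of 16 members on the array, 1 was dim in both groups and not tested, and the other 15 were higher in neutrophils, each by more than 2-fold, with a median difference of 11.74. Ltf (lactoferrin, which binds iron) stood at 10.46 and 10.52 on the neutrophil arrays, against -5.63 and -4.79 on the GMP arrays, where it was not well above background. Ngp, a cathelicidin-related granule protein, was measured at 9.79 and 9.97 in neutrophils, against -5.03 and -5.53 in GMP, again below the detection call. Camp (the cathelicidin antimicrobial peptide) was detected on all 4 arrays, at 10.94 and 11.08 in neutrophils against -2.55 and -2.92 in GMP. All neutrophil values of the 3 genes lay above all GMP values, in a comparison where 92.2% of all genes tested were called. Where a gene was not well above background in a group, only a bound can be given, computed against the lowest signal that was well above background on each array. On that basis Ltf was at least 20106-fold higher (adjusted p 2.76e-10) and Ngp at least 13191-fold higher (adjusted p 5.94e-11). Camp, measured on both sides, was higher by 13.74 (SE 0.182, adjusted p 1.29e-10), the largest difference among genes detected on all 4 arrays. With the genes that were dim in GMP set at their bounds, the list's median was 10.38.

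Other secondary granule genes followed. Lcn2 (lipocalin 2, which binds bacterial siderophores) stood at 10.86 and 11.002 in neutrophils, against 1.16 and 1.18 in GMP, a difference of 9.76 (SE 0.0659, adjusted p 2.92e-11). Chil3, a chitinase-like lectin, was higher by 11.74 and was detected on all 4 arrays. Chil1, of the same family, and Itgb2l, a beta-2-like integrin subunit, were at least 2877-fold and at least 3696-fold higher. Mmp8 (neutrophil collagenase) stood at 9.61 and 9.62 in neutrophils, against -5.55 and -2.85 in GMP, where 1 of the 2 arrays was well above background. Its GMP arrays were far apart for a replicate pair, yet both lay far below the neutrophil arrays. The summed linear signal of the list was 12270 and 13160 times the 75th percentile on the neutrophil arrays, against 93.63 and 97.32 on the GMP arrays.

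The tertiary granule and mature neutrophil genes moved the same way. All 25 were higher, each by more than 2-fold, with a median of 9.08, or 7.53 with dim genes at their bounds. Retnlg, a resistin-like secreted protein, stood at 10.14 and 10.33 in neutrophils, against -5.35 and -3.35 in GMP, and was at least 12930-fold higher. Mmp9 (gelatinase B, the enzyme that names the gelatinase granule) stood at 7.44 and 7.53 in neutrophils, against -5.62 and -5.72 in GMP, and was at least 2510-fold higher. The stefin A genes Stfa2 and Stfa2l1 and the related Cstdc4, inhibitors of cysteine proteases, were at least 2878-fold, 3298-fold and 2948-fold higher. These genes are near-identical neighbours, so a probe may read more than 1 of them. Pygl, the glycogen phosphorylase that releases stored glucose, was higher by 4.95 (SE 0.0474, adjusted p 5.25e-11), at 9.83 and 9.87 in neutrophils against 4.93 and 4.86 in GMP.

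Primary granule genes split in their direction. Of 14 tested, 9 were lower in neutrophils, all by more than 2-fold, and 5 were higher, 4 of them by more than 2-fold, with a median of -3.50. Mpo (myeloperoxidase) stood at 3.73 and 3.79 in neutrophils, against 9.37 and 9.25 in GMP. Elane (neutrophil elastase) stood at 2.57 and 2.50 in neutrophils, against 8.29 and 8.31 in GMP. Prtn3 (proteinase 3) fell furthest, to -1.05 and -0.95 in neutrophils, against 6.88 and 6.83 in GMP. The 3 mRNAs were thus among the more abundant in GMP and no array of neutrophils came near those levels, yet all 3 stayed well above background on both neutrophil arrays. The differences were -5.55 for Mpo (SE 0.0818, adjusted p 1.85e-10), -5.76 for Elane (SE 0.0517, adjusted p 4.52e-11) and -7.86 for Prtn3 (SE 0.0868, adjusted p 7.28e-11). Ctsg (cathepsin G, another of the serine proteases) was lower by the same order, at 1.49 and 1.45 in neutrophils against 9.001 and 9.01 in GMP. Cst7 (cystatin F, an inhibitor of lysosomal cysteine proteases) was lower by 7.47 on the log2 scale, with a mean level of -2.05 in neutrophils and 5.42 in GMP.

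The primary granule members that rose were Lyz2, Fcnb, Serpinb1a, Cd63 and Srgn. Lyz2 (lysozyme, an enzyme that also fills later granules and macrophages) stood at 7.82 and 8.15 in neutrophils, against 1.37 and 1.42 in GMP, a difference of 6.59 (SE 0.124, adjusted p 5.47e-10). Fcnb (ficolin B, a lectin that recognises microbial sugars) rose by 2.25, and Serpinb1a, a cytosolic inhibitor of neutrophil elastase, by 1.69. Cd63 rose by 1.22 and Srgn by 0.17. The summed linear signal of the list was 838 and 914 in neutrophils, against 2155 and 2082 in GMP. Against CD8+ cDC, which share the neutrophils' slide, 13 of the 14 genes were higher in neutrophils and the median difference was 3.26.

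The upstream sequences of 3 secondary and 3 primary granule genes are shown because these 2 sets moved in opposite directions. They are the 250 bases before the annotated start, from RefSeq (GRCm38.p6), which is a later build than the array's own mm9 annotation. Of the granule lists, 14 of 17 secondary and 13 of 15 primary genes matched an entry. Ltf lies at chr9:111019042-111019291 (plus strand), Camp at chr9:109849457-109849706 (minus strand) and Ngp at chr9:110419558-110419807 (plus strand). Mpo lies at chr11:87793534-87793783, Elane at chr10:79886062-79886311 and Prtn3 at chr10:79879417-79879666, all on the plus strand, so that Elane and Prtn3 are near neighbours. Capitals mark TTNNGCAA, a form of the C/EBP recognition sequence, or GAGGAA, the core bound by PU.1 and related ETS factors, each on either strand. The motifs and genes were chosen with the expression values known.
Ltf: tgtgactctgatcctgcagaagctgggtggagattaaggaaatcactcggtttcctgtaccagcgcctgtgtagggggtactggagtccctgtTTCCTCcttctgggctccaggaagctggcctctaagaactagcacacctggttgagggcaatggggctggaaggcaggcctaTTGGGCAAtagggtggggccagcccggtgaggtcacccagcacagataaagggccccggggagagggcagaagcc
Camp: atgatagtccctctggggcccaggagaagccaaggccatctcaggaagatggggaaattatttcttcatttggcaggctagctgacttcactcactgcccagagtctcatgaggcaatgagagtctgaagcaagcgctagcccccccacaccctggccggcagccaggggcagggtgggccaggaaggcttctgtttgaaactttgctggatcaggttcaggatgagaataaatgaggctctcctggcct
Ngp: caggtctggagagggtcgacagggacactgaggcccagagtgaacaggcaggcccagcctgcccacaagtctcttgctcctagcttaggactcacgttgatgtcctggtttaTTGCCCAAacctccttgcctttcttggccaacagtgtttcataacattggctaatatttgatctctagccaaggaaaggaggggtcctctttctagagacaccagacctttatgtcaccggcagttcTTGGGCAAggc
Mpo: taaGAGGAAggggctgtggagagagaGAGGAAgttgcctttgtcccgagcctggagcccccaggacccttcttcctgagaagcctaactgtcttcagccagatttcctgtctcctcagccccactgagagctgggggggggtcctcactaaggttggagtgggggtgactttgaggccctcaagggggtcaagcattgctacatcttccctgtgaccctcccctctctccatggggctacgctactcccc
Elane: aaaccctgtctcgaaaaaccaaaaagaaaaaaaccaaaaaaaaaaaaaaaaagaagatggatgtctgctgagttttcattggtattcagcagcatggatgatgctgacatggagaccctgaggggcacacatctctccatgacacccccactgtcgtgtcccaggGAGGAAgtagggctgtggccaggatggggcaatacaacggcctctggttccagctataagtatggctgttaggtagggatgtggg
Prtn3: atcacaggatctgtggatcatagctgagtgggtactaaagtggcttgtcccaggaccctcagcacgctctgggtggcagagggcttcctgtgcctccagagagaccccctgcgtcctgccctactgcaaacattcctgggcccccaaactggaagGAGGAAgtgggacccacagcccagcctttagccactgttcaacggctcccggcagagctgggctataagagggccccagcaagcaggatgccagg

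In these windows TTNNGCAA occurred once upstream of Ltf, as TTGGGCAA beginning 75 bases before the start, and 2 times upstream of Ngp, as TTGCCCAA beginning at 138 bases and TTGGGCAA beginning at 11 bases. It did not occur in the Camp, Mpo, Elane or Prtn3 windows. GAGGAA occurred 2 times upstream of Mpo and once each upstream of Elane, Prtn3 and, as TTCCTC, Ltf, and it overlapped no TTNNGCAA match in them. Among matched members, 6 of 14 secondary granule genes and 1 of 13 primary granule genes held TTNNGCAA, against 9.6% of all 32851 windows of this length. GAGGAA was held by 8 of 14 secondary and 7 of 13 primary granule genes, against 23.3% of all windows. A match describes the letters and not a bound site.

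Surface receptors of neutrophils rose almost without exception. Of 32 tested, 31 were higher, 29 of them by more than 2-fold, with a median of 3.60. The formyl peptide receptors Fpr1 and Fpr2, which sense bacterial peptides, stood at 8.11 and 8.17 (Fpr1) and 7.83 and 7.92 (Fpr2) in neutrophils and were not well above background in GMP. They were at least 3871-fold and at least 3277-fold higher. Cxcr2, the chemokine receptor that draws neutrophils out of the marrow, stood at 7.31 and 7.25 in neutrophils, against -0.60 and -0.37 in GMP, a difference of 7.76 (SE 0.455, adjusted p 4.86e-07). Csf3r, the receptor of the growth factor G-CSF, was already bright in GMP: it stood at 9.18 and 9.27 in neutrophils, against 7.06 and 6.93 in GMP, a difference of 2.23. The immunoglobulin-like receptors Pirb, Pilra, Lilra6 and Lilrb4a were higher by 10.75, 10.18, 10.57 and 9.80 and were detected on all 4 arrays. These receptors belong to families of similar sequence, and their probes may share targets. The exception was the adenosine receptor Adora2a, at least 4.63-fold lower.

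S100 proteins, small calcium-binding proteins, held some of the highest levels on the neutrophil arrays. Of 10 tested, 8 were higher and 2 lower, all by more than 2-fold, with a median of 3.03. S100a8 and S100a9, which together form calprotectin, stood at 10.63 and 10.73 (S100a8) and 10.65 and 10.79 (S100a9) in neutrophils. In GMP they stood at 2.64 and 2.56 (S100a8) and 1.25 and 1.22 (S100a9). The differences were 8.08 (SE 0.198, adjusted p 2.11e-09) for S100a8 and 9.49 (SE 0.0692, adjusted p 2.92e-11) for S100a9. S100a6 rose by 11.54, at 10.78 and 10.88 in neutrophils against -0.68 and -0.73 in GMP. S100a10, the annexin A2 partner, fell to -1.70 and -1.68 in neutrophils, against 3.17 and 3.12 in GMP.

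The phagocyte oxidase makes superoxide in the phagosome from a membrane core and cytosolic subunits. All 12 tested members of its list, which also holds its activators and the proton channel, were higher by more than 2-fold, with a median of 3.56 (3.23 with dim genes at their bounds). Cybb (gp91phox, the catalytic membrane subunit) stood at 5.05 and 5.14 in neutrophils, against -2.17 and -1.27 in GMP. Its difference was 6.81 (SE 0.235, adjusted p 1.61e-08). The cytosolic subunit Ncf4 (p40phox) rose by 4.64. It was already well expressed in GMP, with levels of 9.06 and 9.15 in neutrophils against 4.46 and 4.48 in GMP.

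**Figure D2:**
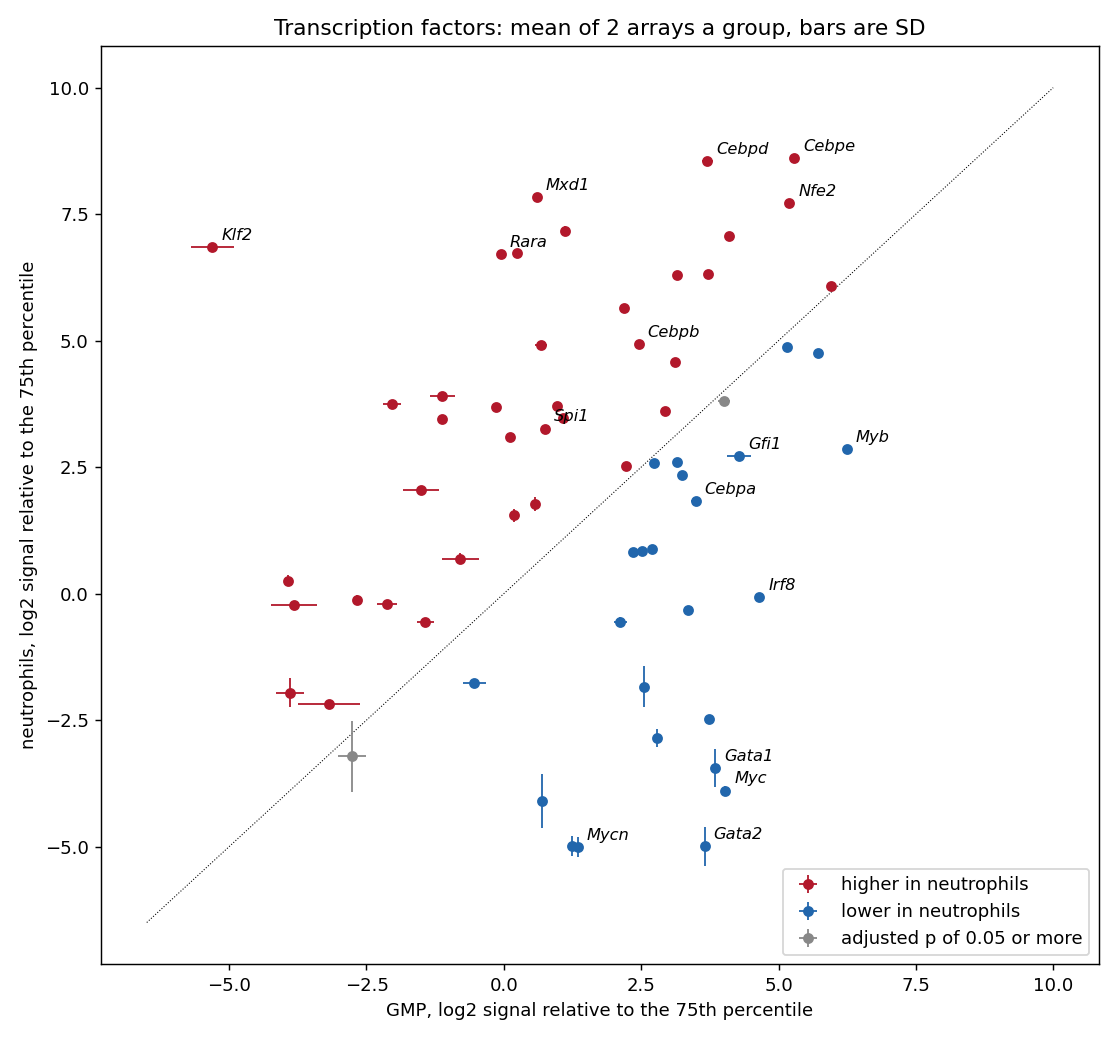
Mean levels of 63 tested transcription factors in neutrophils (y axis) and GMP (x axis), as log2 signal relative to the array's 75th percentile; bars are SD over 2 arrays and the dotted line marks equal levels. Cebpd, Cebpe, Mxd1 and Klf2 lie above the line, and Irf8, Myb, Myc, Gata1 and Gata2 below it.

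Among 63 transcription factors tested, 37 were higher in neutrophils and 24 lower, 33 and 19 of them by more than 2-fold, with a median of 1.21. Members of the C/EBP family differed in direction. Cebpa, needed to form GMP, stood at 1.83 and 1.82 in neutrophils, against 3.44 and 3.55 in GMP, a difference of -1.67 (SE 0.0732, adjusted p 7.25e-08). Cebpe, needed for secondary granule genes, stood at 8.59 and 8.64 in neutrophils, against 5.29 and 5.28 in GMP, a difference of 3.33 (SE 0.151, adjusted p 8.93e-08). Cebpd stood at 8.50 and 8.61 in neutrophils, against 3.78 and 3.63 in GMP, a difference of 4.85. Cebpb, linked to emergency granulopoiesis, was higher by 2.48. Cebpa was thus the member of the 4 that was lower in neutrophils.

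Spi1 (PU.1, a master regulator of myeloid cells) stood at 3.25 and 3.28 in neutrophils, against 0.69 and 0.80 in GMP, and was higher by 2.51 (adjusted p 5.45e-09). Gfi1, a repressor needed for neutrophil formation, was lower by 1.56 on the log2 scale, at 2.71 and 2.74 in neutrophils against 4.13 and 4.44 in GMP (adjusted p 6.68e-05). Irf8 stood at -0.10 and -0.04 in neutrophils, against 4.61 and 4.69 in GMP, a difference of -4.72 (SE 0.0698, adjusted p 1.85e-10). In CD8+ cDC, on the neutrophils' own slide, the mean level of Irf8 was 8.46.

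Factors of the Myc network moved in opposite directions. Myc, a driver of growth and proliferation, stood at -3.96 and -3.83 in neutrophils, below the detection call, against 4.07 and 3.99 in GMP, and was at least 130-fold lower (adjusted p 3.12e-10). Mycn was at least 20.3-fold lower. Mxd1, which competes with Myc for their shared partner Max, stood at 7.81 and 7.85 in neutrophils, against 0.56 and 0.64 in GMP, a difference of 7.24 (SE 0.0861, adjusted p 8.89e-11). Progenitor factors fell: Myb, which holds progenitors in an immature state, was lower by 3.40 on the log2 scale, Gata1 at least 115-fold lower and Gata2 at least 101-fold lower. Klf2, tied to quiescence in leukocytes, was at least 1606-fold higher, at 6.88 and 6.80 in neutrophils. Rara, the retinoic acid receptor alpha, stood at 6.68 and 6.74 in neutrophils, against -0.08 and -0.03 in GMP, a difference of 6.77.

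Genes of stem and progenitor cells were mostly lower: of 24 tested, 21 were lower and 3 higher, all by more than 2-fold, with a median of -4.95. Cd34, a sialomucin of progenitors, had the largest fall among genes detected on all 4 arrays. It stood at -1.67 and -2.12 in neutrophils, against 6.32 and 6.24 in GMP, a difference of -8.17 (SE 0.131, adjusted p 2.59e-10). A second probe for Cd34 gave -5.60. Adgrg1 (GPR56, an adhesion receptor of stem cells) fell by 8.07. Flt3, the receptor that marks lymphoid and dendritic potential, was lower by 5.35 on the log2 scale, was detected on 1 of the 2 neutrophil arrays, and its 2 probes gave -5.35 and -1.35. Dach1, Prom1 and Erg were the members that rose, by 2.05, 2.70 and 1.48.

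Markers of other lineages were followed as a check on what else each sort could hold. Their part in the results above was not tested. Of 23 erythroid and megakaryocyte genes tested, 15 were lower in neutrophils and 7 higher, 15 and 6 of them by more than 2-fold, with a median of -4.40, which was -0.77 over the genes detected on all 4 arrays. Among them Pf4 (platelet factor 4) fell by 7.03, Car2 (carbonic anhydrase 2, detected on 1 of the 2 neutrophil arrays) by 7.50, and Aqp1 (aquaporin 1) was at least 141-fold lower. Globin genes went the other way: Hba-a1, Hbb-bt and Hbb-b2 rose by 1.02, 1.52 and 1.49, and Hbb-bh1 was at least 3.19-fold higher. Slc4a1 rose by 1.66. The summed linear signal of the list was 233 and 241 in neutrophils, against 267 and 268 in GMP. Of its 25 genes, 9 were not well above background in neutrophils, against 2 in GMP. Nfe2, listed here but also expressed in granulocytes, was higher by 2.53 and made up 89.4% and 89.5% of the list's sum in neutrophils, against 13.9% and 13.5% in GMP. In a check added after the data were seen, sums were taken again without any gene that held over 30% of its list's sum on an array. Without Nfe2 and Pf4 the sum was 24.13 and 24.62 in neutrophils, against 144.9 and 149.4 in GMP.

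Of 16 basophil and mast cell genes, 11 were lower and 5 higher, 11 and 3 of them by more than 2-fold, with a median of -3.49, which was -1.84 with dim genes at their bounds and 0.17 over the genes detected on all 4 arrays. Among the 11, Cd200r3 and Il4 were dim in neutrophils, with bounds of only 1.12-fold and 1.90-fold. Cpa3 (mast cell carboxypeptidase, detected on 1 of the 2 neutrophil arrays) fell by 7.79 and Mcpt8 (a basophil protease) by 5.21. Hdc (histidine decarboxylase, which makes histamine) rose by 2.66. Mcpt4, a mast cell protease, was at least 5.78-fold higher, at -1.24 and -1.31 in neutrophils. Hgf and Tpsb2 rose by 1.48 and 0.77. The summed signal of that list was 417 and 436 in neutrophils, against 325 and 317 in GMP. Without Hdc and Srgn (serglycin, also on the primary granule list) it turned round, to 6.58 and 7.16 in neutrophils, against 117.1 and 112.9 in GMP. Eosinophil genes split, 4 higher and 4 lower of 10, 4 and 3 of them by more than 2-fold, with a median of -0.03. Their sum was 160 and 164 in neutrophils, against 99.03 and 99.2 in GMP, and without Ear2 and Prg2 it was 49.61 and 49.6 in neutrophils, against 25.92 and 24.28 in GMP. Epx (eosinophil peroxidase) was at least 68.9-fold lower and Prg2 (major basic protein) fell by 7.48, while the ribonucleases Ear1, Ear2 and Ear10, near-identical copies whose probes may share targets, rose by 2.998 to 3.75. Of 18 basophil and mast cell genes, 8 were not well above background in neutrophils, against 3 in GMP, and of 11 eosinophil genes 3 in neutrophils, against 2 in GMP.

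Monocyte and macrophage genes were 14 higher and 7 lower of 21, 13 and 6 of them by more than 2-fold, with a median of 1.69. Lgals3 (galectin 3) rose by 9.72, whereas F13a1 (coagulation factor XIII subunit A), Ms4a6c and the chemokine Ccl9 were lower, by 5.84, at least 32.2-fold and by 5.12. The summed signal was 925 and 990 in neutrophils, against 134 and 135 in GMP, and 8 of 26 were not well above background in neutrophils, against 6 in GMP. Without Lgals3 and Ccl9 the sum was 374 and 393 in neutrophils, against 87.17 and 88.95 in GMP. Dendritic cell genes were 10 higher and 7 lower of 17, 10 and 6 of them by more than 2-fold, with a median of 1.64. Their sum was 801 and 805 in neutrophils, against 360 and 384 in GMP, and 7 of 23 were not well above background in neutrophils, against 10 in GMP. Without Siglech and Mgl2 the sum was 374 and 376 in neutrophils, against 106 and 109 in GMP. Ffar2, counted as higher (6.04), had GMP arrays far apart, at -5.47 and 2.38. It lost its call when only the 4 arrays were fitted. Genes of MHC class II presentation were balanced, 6 higher and 6 lower of 13, 6 and 5 of them by more than 2-fold. H2-DMa, a peptide-loading chaperone, fell by 4.74, and Cd74, the invariant chain, rose by 1.92.

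Lymphoid markers gave mixed values. Of 11 B lymphoid genes tested, 10 were higher in neutrophils and 1 lower, 9 and 1 of them by more than 2-fold. Vpreb3, a pre-B-cell receptor chaperone, was at least 40.6-fold higher, at 1.87 and 1.91 in neutrophils. Cd79b, a chain of the B-cell receptor, was lower by 1.72 on the log2 scale, and the summed signal of the list was low in both groups, at 15.06 and 15.08 in neutrophils against 12.29 and 11.90 in GMP. Without Cd79b the sum was 12.07 on both neutrophil arrays, against 2.27 and 2.17 in GMP. The list's median was 3.72, which was 2.27 with dim genes at their bounds and 0.89 over the genes detected on all 4 arrays, and 4 of 15 were not well above background in neutrophils, against 9 in GMP. Of 11 T and NK genes, 4 were higher, 4 lower and 3 not called, all 8 calls being larger than 2-fold by the measured difference. Cd3d, a chain of the T-cell receptor complex, stood at 3.60 and 3.65 in neutrophils and was at least 173-fold higher. Thy1 was lower by 2.02 on the log2 scale. Gata3, dim in neutrophils, was lower by 1.76, but its bound was only at least 1.004-fold lower. Gata3 took the opposite sign (0.55) under another background correction (normexp). The summed signal of the T and NK list was 29.79 and 30.70 in neutrophils, against 96.27 and 88.18 in GMP, where Nkg7, also on the primary granule list, made up 95.1% and 94.9% of it. Without Nkg7 and Cd3d the direction turned, with 7.74 and 7.72 in neutrophils against 4.69 and 4.52 in GMP.

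**Figure D3:**
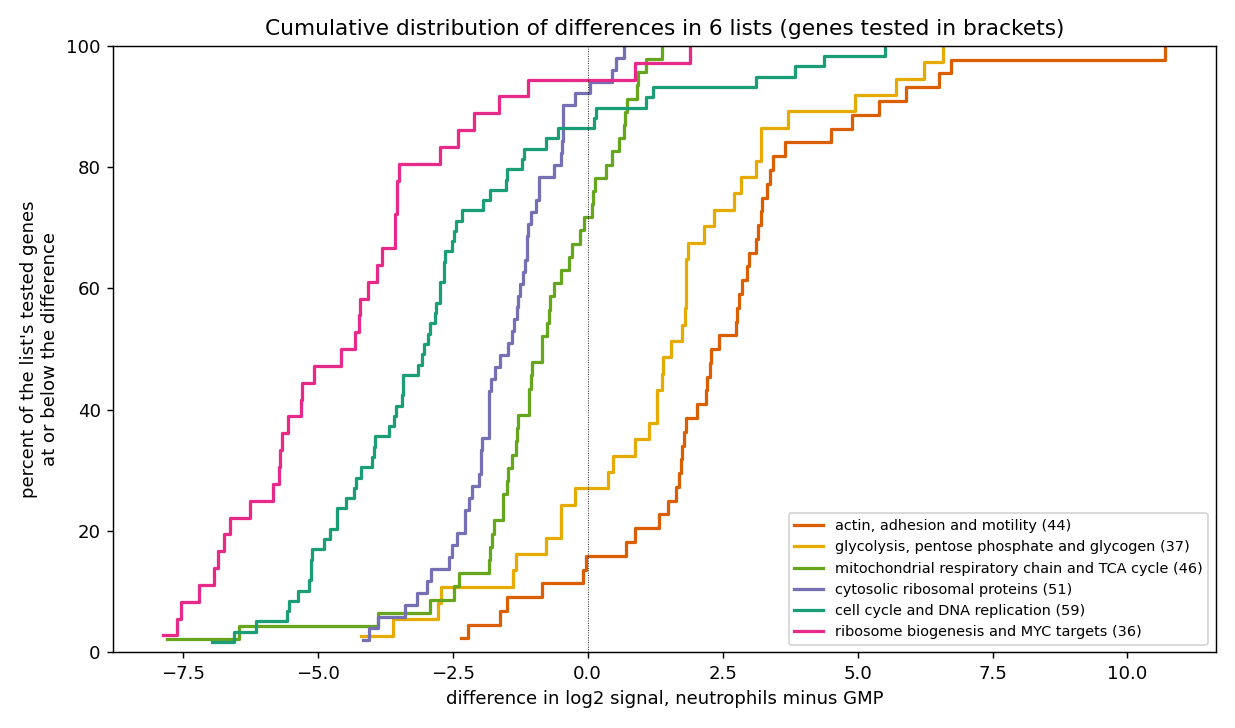
Cumulative percentage of each list's tested genes (y axis) at or below a given difference in log2 signal, neutrophils minus GMP (x axis), for 6 lists. The curves of ribosome biogenesis (median -4.43) and the cell cycle (-3.02) lie to the left, those of glycolysis (1.54) and actin and motility (2.36) to the right.

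Cell cycle genes fell as a group: of 59 tested, 51 were lower in neutrophils and 6 higher, 49 and 6 of them by more than 2-fold, with a median of -3.02. Mcm2 and Mcm3, subunits of the replicative helicase, fell furthest. Mcm2 stood at -2.54 and -2.26 in neutrophils, against 4.56 and 4.53 in GMP, a difference of -6.95 (SE 0.0905, adjusted p 1.23e-10). Mki67 (Ki-67, a mark of cycling cells) stood at 2.58 and 2.64 in neutrophils, against 5.78 and 5.74 in GMP, a difference of -3.15. Top2a, Pcna and Ccnb1 (topoisomerase II alpha, the replication clamp and cyclin B1) were lower by 4.65, 4.28 and 2.95 on the log2 scale. Mki67 and Pcna remained above the 75th percentile of the neutrophil arrays. The members that rose most were E2f2 (an E2F transcription factor), Cdkn2d (the CDK4/6 inhibitor p19INK4D) and Ccnd3 (cyclin D3), by 5.50, 4.37 and 3.84. Ccnd3 stood at 8.95 and 9.05 in neutrophils, against 5.22 and 5.12 in GMP.

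Ribosome biogenesis and MYC target genes had one of the lowest medians of the lists. Of 36 genes tested, 34 were lower in neutrophils, each by more than 2-fold, and 2 higher, with a median of -4.43. Srm (spermidine synthase) stood at -2.16 and -1.98 in neutrophils, against 5.57 and 5.51 in GMP, a difference of -7.61 (SE 0.0691, adjusted p 4.52e-11). Npm1 (nucleophosmin) stood at 1.90 and 1.91 in neutrophils, against 7.58 and 7.61 in GMP, a difference of -5.69 (adjusted p 2.92e-11). Its 4 probes ranged between -5.69 and -5.36. Ncl (nucleolin) fell by 3.56. The rRNA processing factors Tsr1 and Nop16 were at least 55.3-fold and at least 67.7-fold lower. Polr1a, the largest subunit of RNA polymerase I, was 1 of the 2 that rose, by 1.89. The other was Ldha, whose probes differed in sign (-0.35 and 0.87 at the extremes). 

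Cytosolic ribosomal protein genes fell by less. Of 51 tested, 47 were lower, 37 by more than 2-fold, and 3 higher, none by 2-fold, with a median of -1.48. Rpl10a stood at 4.70 and 4.71 in neutrophils, against 8.90 and 8.83 in GMP, a difference of -4.16 (SE 0.054, adjusted p 1.23e-10), and Rpl3 and Rpl12 were lower by 4.05 and 3.87 on the log2 scale. Rps9 rose by 0.67, a difference that lost its call under quantile normalization (0.01), array medians (0.12) and the authors' table (0.02). The other 2 that were higher, Rps27 and Rpl37, turned lower with array medians. The summed signal of the list was 7156 and 7283 in neutrophils, against 16120 and 15460 in GMP. Translation factors were lower in 18 of 21 cases and higher in 3, all by more than 2-fold, with a median of -2.15. Eif3b, a subunit of initiation factor 3, fell by 4.91, while Eif4ebp1, which restrains the cap-binding factor, rose by 2.16. 

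Protein folding in the endoplasmic reticulum showed 27 of 31 genes lower and 4 higher, 21 and 1 of them by more than 2-fold, with a median of -1.67. Sdf2l1 and Pdia4, both folding factors, fell by 6.47 and 5.01, with Pdia4 detected on 1 of the 2 neutrophil arrays. Hspa5 (BiP, the main chaperone of this compartment) stood at 4.83 and 4.91 in neutrophils, against 6.58 and 6.50 in GMP, a difference of -1.67. Ddit3 (CHOP, a stress transcription factor) rose by 2.41. Spliceosome and RNA processing genes were lower in 30 of 36 cases and higher in 4, 23 and 1 of them by more than 2-fold, with a median of -1.68. Snrpf and Snrpd1, core proteins of spliceosomal particles, fell by 4.53 and 4.11, and the nuclear RNA Malat1 rose by 2.56.

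Metabolic genes divided by pathway. Of 37 genes of glycolysis, the pentose phosphate pathway and glycogen metabolism, 27 were higher and 9 lower, 24 and 6 of them by more than 2-fold, with a median of 1.54. The glucose transporters Slc2a3 and Slc2a6 rose by 5.72 and 6.24. Pfkfb4, which sets the level of the glycolytic activator fructose 2,6-bisphosphate, stood at 7.13 and 7.24 in neutrophils, against 0.62 and 0.59 in GMP. G6pdx, the entry enzyme of the pentose phosphate pathway and a source of NADPH for the oxidase, stood at 8.005 and 7.99 in neutrophils, against 4.32 and 4.26 in GMP, a difference of 3.71 (SE 0.0531, adjusted p 1.67e-10). Isoforms went separate ways: of the glycogen phosphorylases, Pygl rose as given above and Pygb, detected on 1 of the 2 neutrophil arrays, fell by 4.19. Pfkm, a phosphofructokinase, and Ldhb, a lactate dehydrogenase, fell by 3.61 and 2.78.

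Mitochondrial respiratory and TCA cycle genes were lower in 31 of 46 cases and higher in 11, 22 and 2 of them by more than 2-fold, with a median of -0.84. Idh2 stood at 0.07 and 0.09 in neutrophils, against 6.58 and 6.50 in GMP, a difference of -6.46 (SE 0.0563, adjusted p 4.51e-11). Idh3a, a subunit of the NAD-dependent isocitrate dehydrogenase, was at least 145-fold lower, and Fh1 (fumarase) fell by 3.87. Cycs (cytochrome c) was lower by 1.83 on the log2 scale. Mdh2 (mitochondrial malate dehydrogenase) rose by 1.38. The summed signal of the list was 2299 and 2354 in neutrophils, against 2358 and 2309 in GMP, which overlapped.

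Genes of actin, adhesion and motility rose as a group. Of 44 tested, 37 were higher and 5 lower, 35 and 4 of them by more than 2-fold, with a median of 2.36. Fgr, a Src-family kinase that signals from integrins and Fc receptors, was at least 872-fold higher. Gsn (gelsolin, which cuts actin filaments) stood at 7.82 on both neutrophil arrays, against 1.09 on the 1 GMP array that gave a value. Itgb1 and Itga6, integrin chains that bind extracellular matrix, were lower by 2.34 and 1.63 on the log2 scale. The summed signal was 11520 and 12200 in neutrophils, against 2088 and 2004 in GMP.

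Inflammatory genes were for the most part higher. Of 25 cytokines and chemokines tested, 19 were higher and 4 lower, 16 and 4 of them by more than 2-fold, with a median of 2.14. Il1b (interleukin 1 beta) stood at 5.90 and 5.95 in neutrophils, against -3.26 and -3.41 in GMP, below the detection call, and was at least 611-fold higher. Il1rn, the antagonist of the same receptor, was at least 32.1-fold higher. Ccl6 rose by 8.37, and Ccl9 fell by 5.12, so the 2 related chemokines moved in opposite directions. Cxcl2, an activator of neutrophils, was not well above background in either group, with levels of -3.82 and -3.87 in neutrophils and -5.60 and -5.73 in GMP, and was not tested.

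Of 34 Toll-like receptors, adaptors and inflammasome genes, 27 were higher and 3 lower, 25 and 2 of them by more than 2-fold, with a median of 1.90. Tlr13, a sensor of bacterial ribosomal RNA in mice, stood at 6.87 and 6.92 in neutrophils, against -0.70 and -0.73 in GMP, a difference of 7.61 (SE 0.0698, adjusted p 4.52e-11). Tlr2 and Tlr4, sensors of lipopeptides and lipopolysaccharide, rose by 4.67 and 2.73, and Tlr5, a sensor of flagellin, was at least 24.5-fold higher. Nlrc4, an inflammasome scaffold, was at least 6.69-fold lower. Interferon response genes were higher in 27 of 32 cases and lower in 4, 26 and 4 of them by more than 2-fold, with a median of 2.48. Ifitm6 rose by 10.97, with levels of 9.94 and 10.01 in neutrophils against -0.98 and -0.99 in GMP. Ifit3 was at least 78.6-fold higher and Rsad2 (viperin) rose by 5.56, while Gbp3 was at least 54.0-fold lower.

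Genes that govern survival were 19 higher and 6 lower of 25, 15 and 4 of them by more than 2-fold, with a median of 1.71. Mcl1, the antiapoptotic protein on which neutrophil survival depends, stood at 7.21 and 7.16 in neutrophils, against 4.47 and 4.42 in GMP, a difference of 2.74 (SE 0.0707, adjusted p 2.82e-09). Bcl2, its relative, detected on 1 of the 2 neutrophil arrays, went the other way, to -2.20 and -2.58 in neutrophils, against 2.51 and 2.58 in GMP, a difference of -4.93 (SE 0.135, adjusted p 3.91e-09). The death receptor Fas rose by 7.63, and the proapoptotic Pmaip1 (NOXA) and Bmf by 5.14 and 4.86. Genes of leukotriene and prostaglandin synthesis were 11 higher and 5 lower of 18, 9 and 4 of them by more than 2-fold, with a median of 1.04. Among the 4, Alox12 was dim in neutrophils, with a bound of only 1.16-fold. Alox5 (5-lipoxygenase) stood at 7.56 and 7.64 in neutrophils, against 2.47 and 2.48 in GMP, a difference of 5.12, and its partner Alox5ap rose by 3.28.

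Immediate early and stress genes, which can also respond to handling during a sort, were 23 higher and 4 lower of 28, 21 and 3 of them by more than 2-fold, with a median of 2.53. Zfp36 (which destabilises cytokine mRNAs) was at least 63.0-fold higher, Fosl2 rose by 5.42 and Dusp1 by 5.21. Against CD8+ cDC the same list had a median of -0.42. The part of handling was not tested.

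The nuclear envelope list had no common direction, with 9 higher and 11 lower of 22, 6 and 8 of them by more than 2-fold, and a median of -0.13. Lbr (lamin B receptor, needed for the lobed nucleus) stood at 6.03 and 6.18 in neutrophils, against 4.30 and 4.27 in GMP, a difference of 1.82 (SE 0.0838, adjusted p 9.83e-08). Lmna (lamins A and C) was at least 7.29-fold lower. Lmnb1 (lamin B1) stood at 4.59 and 4.52 in neutrophils and 3.88 and 4.11 in GMP, and its difference of 0.56 did not pass (adjusted p 0.0542), although it passed in 4 alternatives, with adjusted p values between 0.00936 and 0.0422. Padi4, which citrullinates histones in neutrophil extracellular traps, rose by 6.90, and Syne1, a giant linker of the nuclear envelope, by 5.16. Lysosomal genes were 23 higher and 8 lower of 33, 16 and 5 of them by more than 2-fold, with a median of 0.92. Cathepsins H and E (Ctsh and Ctse) rose by 4.48 and 3.93, while the glycoside hydrolases Gaa and Glb1 fell by 3.75 and 3.46.

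**Figure D4:**
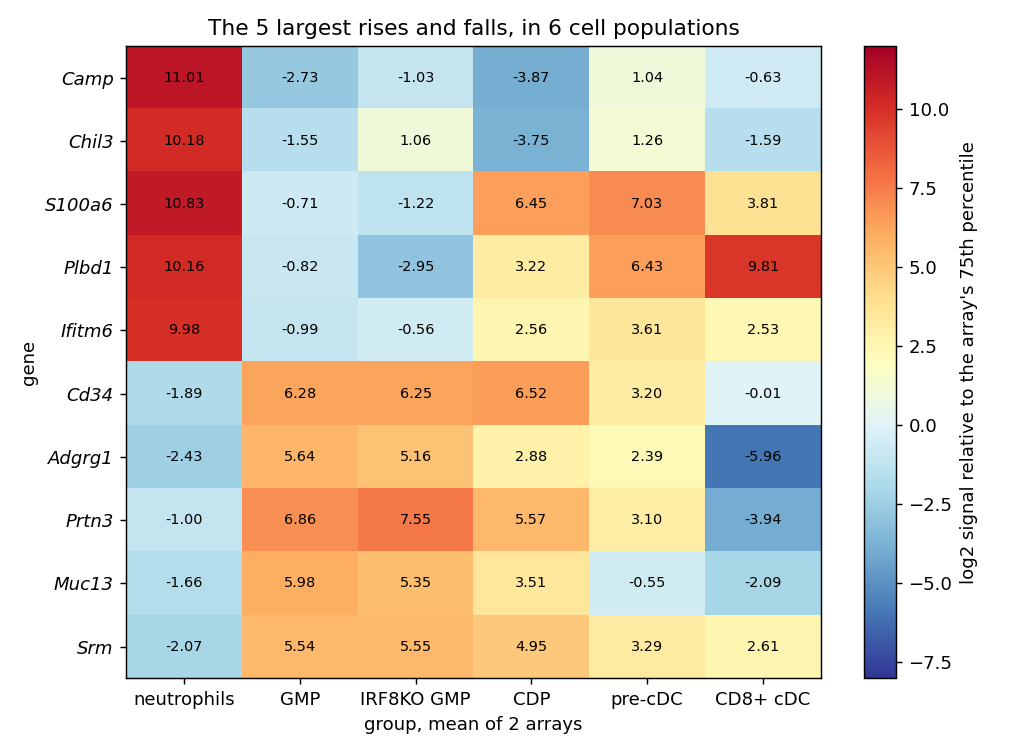
Mean log2 signal relative to the array's 75th percentile (colour and printed values) of the 5 genes with the largest rises and the 5 with the largest falls among genes detected on all 4 arrays (rows), in 6 cell populations of 2 arrays each (columns). Camp and Chil3 are high in neutrophils only among these 6, while Plbd1 and S100a6 are also high elsewhere.

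The leading genes were also read in the other populations of the series. Camp and Chil3 averaged 11.01 and 10.18 in neutrophils and lay between -3.87 and 1.26 in the other 5 populations shown. S100a6 and Plbd1 averaged 10.83 and 10.16 in neutrophils, but S100a6 reached 7.03 in pre-cDC and Plbd1, a phospholipase of phagocyte granules, reached 9.81 in CD8+ cDC. Ifitm6 averaged 9.98 in neutrophils and no more than 3.61 elsewhere. Among the largest falls, Cd34, Adgrg1, Prtn3, Muc13 (a membrane mucin) and Srm averaged between -2.43 and -0.998 in neutrophils and between 5.54 and 6.86 in GMP, and all 5 had levels above 5 in IRF8KO GMP too. Prtn3 was higher in IRF8KO GMP, at 7.55, than in any other population shown. In CD8+ cDC, Cd34 and Muc13 averaged -0.01 and -2.09. These are levels of single probes with no test between the added populations.

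Some genes that were bright in GMP were not well above background in neutrophils. Smyd2 (a lysine methyltransferase) was at least 170-fold lower, at -3.17 and -3.23 in neutrophils against 4.45 and 4.37 in GMP. Mthfd1 (folate metabolism), Idh3a, Dut (which clears dUTP before replication), Aqp1, Nme4, Myc, Rab38, Nlgn2 and Fam136a followed, at least 128-fold to 149-fold lower. These bounds are limited by the dimmer neutrophil arrays: the lowest signal that counted as well above background was 19.5 and 19.3 units on the neutrophil arrays, against a 75th percentile of only 163 and 148 units. On the GMP arrays it was 48.9 and 33.7 units, against 553 and 584 units.

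**Figure D5:**
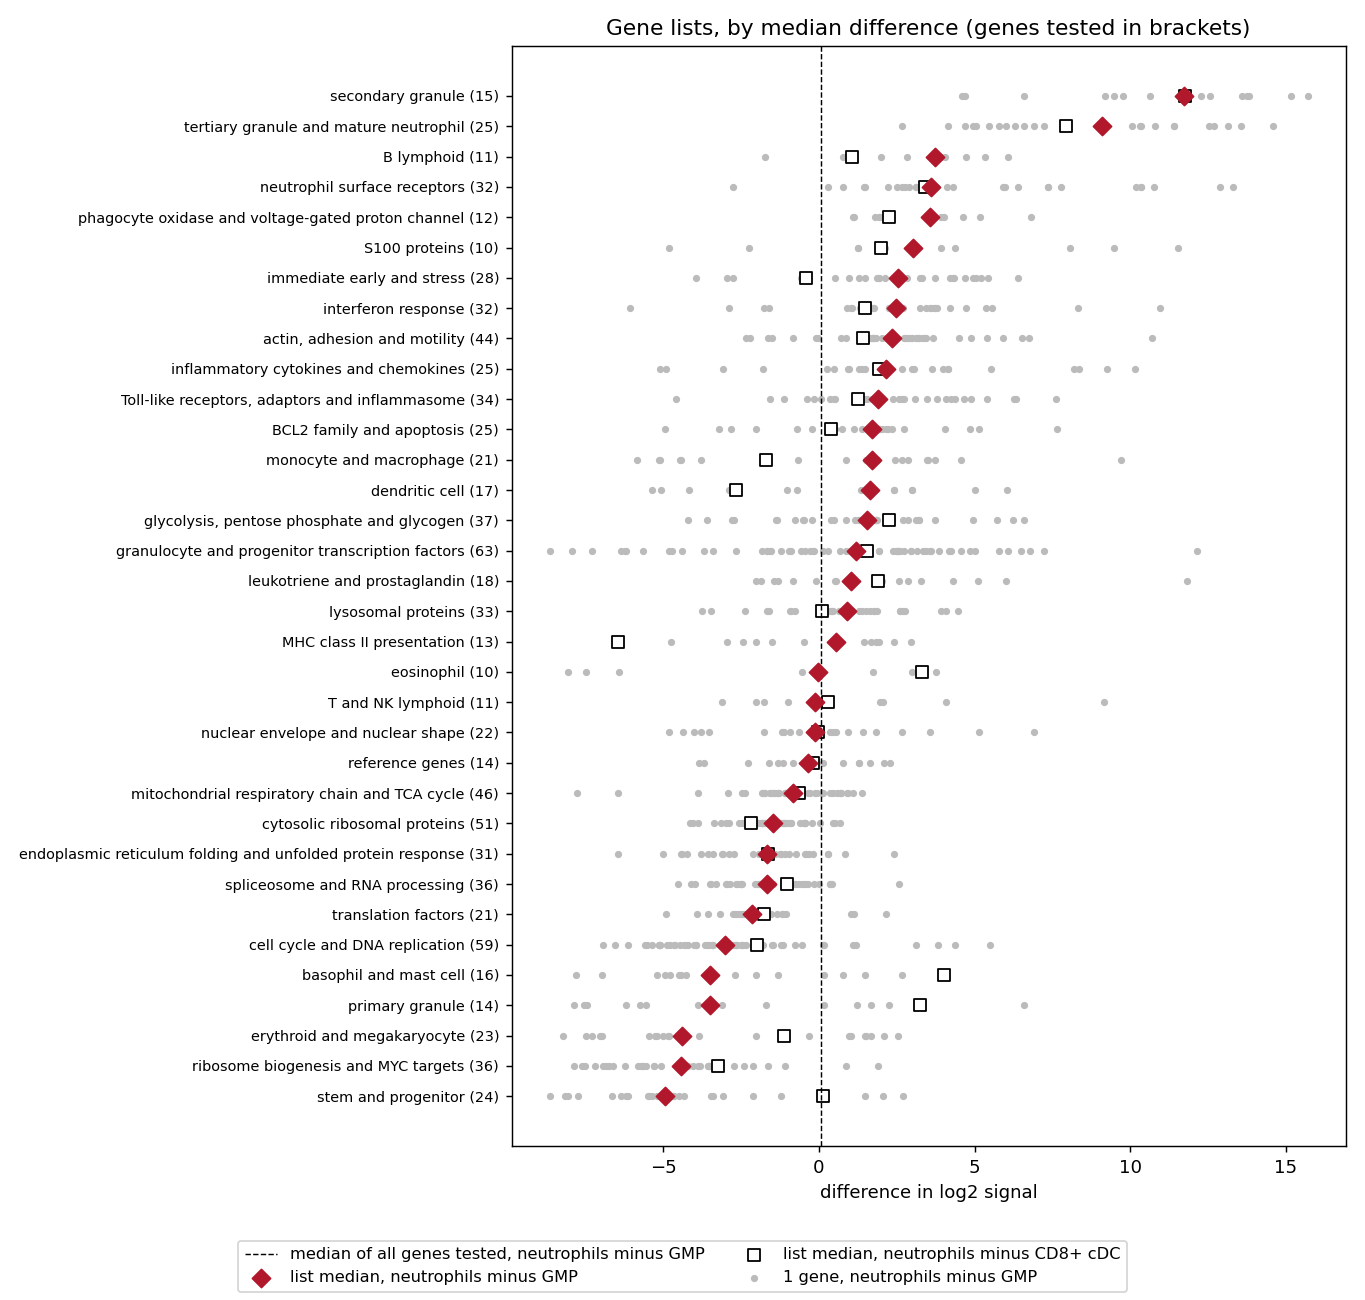
Differences in log2 signal (x axis) for each gene list (rows, with the number of genes tested): grey points are single genes and diamonds list medians for neutrophils minus GMP, open squares list medians for neutrophils minus CD8+ cDC, over the genes tested there. The secondary granule median is 11.74 against GMP and 11.77 against CD8+ cDC, whereas the primary granule median is -3.50 against GMP and 3.26 against CD8+ cDC.

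Neutrophils and CD8+ cDC were hybridised on 1 slide, so their difference holds the slide fixed, although the neutrophil arrays are the same as above. It does not hold the organ fixed, since the CD8+ cDC came from spleen and the neutrophils from bone marrow. Of 12806 genes tested there, 11055 were called (86.3%), 5609 higher (43.8%) and 5446 lower (42.5%). Secondary granule genes had a median of 11.77 against CD8+ cDC and 11.74 against GMP, and the mature neutrophil list 7.94 and 9.08. Ltf, Camp and S100a9 were higher than in CD8+ cDC by 12.77, 11.64 and 6.95. Ribosome biogenesis had a median of -3.25 against CD8+ cDC and -4.43 against GMP, with 34 of 36 genes lower in each. The cell cycle list had -1.99 against CD8+ cDC and -3.02 against GMP, and the ribosomal proteins -2.20 and -1.48. Primary granule genes differed in sign, with 3.26 against CD8+ cDC and -3.50 against GMP. For the basophil and mast cell list only 8 genes were tested in both comparisons, and over these the median was 4.03 against CD8+ cDC and 0.47 against GMP. The MHC class II list stood at -6.44 against CD8+ cDC, where 13 of 13 genes were lower, and at 0.55 against GMP.

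The genes of the gate markers are given as values only, since the sort was made on their proteins. Kit (CD117) was lower by 4.12 on the log2 scale and Itgam (CD11b) higher by 3.06, with 3 probes between 3.06 and 7.36. Csf1r (CD115), Ly6a (Sca-1) and Fcgr3 (CD16) were higher in neutrophils by 2.67, 5.02 and 2.59, and Fcgr2b (CD32) differed by -0.17. No probe carries the name Ly6g. The neutrophil mRNAs S100a8, S100a9, Ltf and Camp stood above 9 on the neutrophil arrays. Progenitor mRNAs that the gate did not use, Cd34, Mpo and Elane, stood above 5 on the GMP arrays. These were picked from longer marker lists with other members that stood lower, such as Mmp9 and Cxcr2 in neutrophils and Flt3 (2.66 and 2.68) in GMP. Genes often used as loading references were not constant: of 14, 6 were higher and 7 lower, 5 and 6 of them by more than 2-fold, with a median of -0.36, from -3.87 for Tfrc, the transferrin receptor, to 2.27 for Actb. Of 3221 genes with several probes tested, 572 had probes that disagreed in sign.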

How the data were processed

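RNA of sorted cells was labelled with the Low Input Quick Amp kit for Agilent arrays of 1 colour, per the labels' protocols. The spot intensity analysed is Feature Extraction's processed signal, already background-treated by that software, per the file headers. The authors' deposited table of processed intensities of the same arrays, taken to the log2 scale here, served as an alternative. Control spots and outlier spots were left out, the log2 signal was taken relative to each array's 75th percentile, and spots of a probe were averaged. A gene is represented by its brightest probe. Genes detected well above background on both neutrophil arrays or both GMP arrays were tested with limma in 1 fit over the 12 arrays of the larger design, with Benjamini-Hochberg adjustment over all 12530 genes and calls at an adjusted p under 0.05. The 2 CD4+ cDC arrays, of a smaller design, were not in the fit. The deposited files hold no mean spot signal, so the normexp alternative used median spot signals, a choice made after seeing the data. Genes were named by rule: the 12 largest rises and falls among called genes detected on all 4 arrays, the 10 largest bounds each way, the 3 largest rises and falls of each list, gate markers and a list of key genes. Of 55681 probes, 26762 carry 1 gene symbol and 28919 none. Comparison, lists and motifs were chosen with earlier results of these data known. The fit was tested on simulated data. Software was R 4.3.3, limma 3.58.1 and Python 3.11.15.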

Additional observations from a re-analysis of the deposited data

How the results depend on the processing

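The comparison was repeated under 15 alternatives, and the counts of called genes kept within 1.5 times the reported ones in each. Called genes numbered 11013 when arrays were scaled to their medians and 14369 when dim probes were kept, against 11558. Leaving out each array in turn gave 11357 to 11687. With the replicate block on the 4 arrays 11416 were called, and the deviations of same-numbered arrays correlated at 0.00926. The labels do not say what a shared number marks, and this value cannot decide it. The share of calls that were higher was 41.73% under median scaling and 59.74% with dim probes kept, against 51.19%. The median of all genes was 0.08 as reported, 0.12 with normexp on median spot signals (chosen after seeing the data), -0.19 with quantile normalization, -0.47 with array medians, -0.30 with the percentile over detected probes and -0.04 in the authors' table. Of 249 named genes tested, 240 kept their direction and 236 their call in every alternative that tested them. Genes dim in 1 group, such as Ltf and Ngp, were not tested in the alternative kept to genes detected on all 4 arrays. Directions turned as follows, and the cause was not tested. With normexp the differences were 0.337 for Alox12, 0.548 for Gata3, 0.490 for Ifi44, -0.109 for Atf4 and -0.244 for Cs. With quantile normalization they were -0.131 for Atf4, -0.446 for Cs and -0.140 for Rpl37. With array medians they were -0.245 for Atf4, -0.410 for Cs, -0.0212 for Rpl37, -0.0969 for Rps27, -0.196 for Sf3b1 and -0.135 for Snrpc. With the detected percentile they were -0.0718 for Atf4, -0.236 for Cs and -0.0219 for Sf3b1. In the authors' table they were -0.0928 for Atf4, -0.406 for Cs and -0.126 for Rpl37, and with the mean over probes -0.221 for Atf4. List medians of MHC class II, T and NK, eosinophil, nuclear envelope, basophil and reference genes changed sign in at least 1 alternative. Kept to genes detected on all 4 arrays, the median was 5.91 for tertiary granule genes, -0.77 for erythroid and 0.89 for B lymphoid genes. Of the genes tested, 13.2% were not well above background in neutrophils, against 5.90% in GMP. The part of array brightness in this was not tested.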

Other observations

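Many probes of the array carry no gene symbol and enter none of the lists. Of these, 5195 probes named by a genomic interval were tested, of which 3480 were higher in neutrophils and 1067 lower, with a median difference of 1.37. Among 5409 other probes without a symbol, 2968 were higher and 1884 lower, with a median of 0.70. The named genes had a median of 0.08.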
